A study of Mus musculus with 6 samples.

Results

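A group of 10 genes of canonical Wnt signaling was followed through the nuclei of mouse intestinal organoids: Lgr4, Lrp5, Lrp6, Rnf43, Znrf3, Tcf7, Tcf7l2, Axin2, Nkd1 and Notum. They were listed by name, and all 10 were found among the 31319 genes counted. Organoids are epithelial cultures, here grown from the jejunum of C57BL/6 mice aged 8 to 12 weeks. They were kept in medium conditioned by quiescent mouse embryonic fibroblasts (QCM) or by senescent ones (SCM), with 3 samples per medium, and RNA was counted in single nuclei. The fibroblasts of both media were growth arrested. Serum deprivation made the control fibroblasts quiescent, and X-ray irradiation or doxorubicin made the others senescent. The labels do not say which of the latter was used for these samples, and they do not tie a sample to an animal. The comparison asked whether SCM moved the receptors, transcription factors or feedback genes of this pathway, over all nuclei and in the clusters of nuclei that were deposited with the data, numbered 0 to 14.

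Canonical Wnt signaling starts when a Wnt protein joins a Frizzled receptor to the co-receptor Lrp5 or Lrp6, which stops the destruction of β-catenin and lets it act with TCF factors in the nucleus. R-spondins bound to Lgr receptors protect Frizzled from the ubiquitin ligases Rnf43 and Znrf3, so these ligases set how much receptor a cell has. Axin2, Nkd1 and Notum are targets of the pathway that also inhibit it. In the small intestine the signal is highest at the crypt base, where it maintains the stem cells.

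Depth and library quality differed between samples. The files held 38154 nuclei, 430 in SCM replicate 1 and 3791 to 10833 in the others, with 4071926 to 41035733 UMIs (unique molecular identifiers, which count RNA molecules) per sample. SCM replicate 1 shared 175 of its nuclear barcodes (40.7%) with QCM replicate 1, while the other pairs of samples shared at most 36. Ribosomal protein genes took 4.96% to 14.2% of the UMIs in QCM and 2.64% to 7.30% in SCM. The 6 fibroblast markers summed to at most 2.71 UMIs per 1000000 (CPM) in any sample, the 5 immune markers to at most 4.72 and the 4 endothelial markers to at most 6.47, while the 7 enterocyte markers summed to at least 469 CPM. No marker of these lists was at 0 in all samples. The 6 fetal markers summed to 44.6 to 90.4 CPM in QCM and to 149 to 566 CPM in SCM, without overlap. The enterocyte markers had 1130 to 4964 CPM in QCM and 469 to 1754 in SCM, the 7 goblet markers 808 to 2011 and 499 to 827, the 6 Paneth markers 518 to 2633 and 335 to 582, and the 7 enteroendocrine markers 168 to 313 and 50.8 to 188. The 6 tuft markers had 11.9 to 25.2 CPM in QCM and 12.8 to 18.6 in SCM. The 7 stem cell markers had 1748 to 3012 CPM in QCM and 2185 to 3453 in SCM, and the 4 markers of proliferation 324 to 539 and 292 to 351. The part of these shifts in the differences over all nuclei was not tested.

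The members lie on 5 chromosomes (GENCODE M21, GRCm38). Axin2 (ENSMUSG00000000142) is at chr11:108920349-108950783 on the plus strand, Tcf7l2 (ENSMUSG00000024985) at chr19:55741820-55933654 on the plus strand and Nkd1 (ENSMUSG00000031661) at chr8:88521354-88594884 on the plus strand. Rnf43 (ENSMUSG00000034177) is at chr11:87662722-87735539 on the plus strand and Znrf3 (ENSMUSG00000041961) at chr11:5276324-5444847 on the minus strand. Of the members, 4 overlap another gene on their own strand. For Tcf7 that gene, Gm26551, had 16238 UMIs against 488 for Tcf7 itself, so the Tcf7 count is uncertain. The other 3 overlaps were with 1110028F11Rik for Rnf43 (612 UMIs), Ppnr for Tcf7l2 (1290 UMIs) and Gm45496 for Nkd1 (6 UMIs). Axin2, Rnf43, Tcf7 and Notum also overlap genes on the opposite strand, and the strand setting of the counting is not given in the sources used here.

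Promoter windows of 300 bases, 250 before and 50 after a transcript start, were read from RefSeq (GRCm38.p6) for 6 of the 10 members in 9 windows. The windows of Axin2, Tcf7l2 and Nkd1 are shown because these genes had the most uneven levels over the clusters. Each is written 5′ to 3′ on the strand of its gene, with CG dinucleotides in capitals.
Axin2, chr11:108920099-108920398, plus strand: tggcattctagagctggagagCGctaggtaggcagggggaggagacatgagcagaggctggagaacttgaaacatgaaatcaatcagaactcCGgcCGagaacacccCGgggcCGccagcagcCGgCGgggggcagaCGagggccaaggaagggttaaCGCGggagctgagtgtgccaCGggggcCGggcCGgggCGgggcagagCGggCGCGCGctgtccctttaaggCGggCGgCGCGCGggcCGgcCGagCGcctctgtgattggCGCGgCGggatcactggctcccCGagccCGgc
Tcf7l2, chr19:55741560-55741859, plus strand: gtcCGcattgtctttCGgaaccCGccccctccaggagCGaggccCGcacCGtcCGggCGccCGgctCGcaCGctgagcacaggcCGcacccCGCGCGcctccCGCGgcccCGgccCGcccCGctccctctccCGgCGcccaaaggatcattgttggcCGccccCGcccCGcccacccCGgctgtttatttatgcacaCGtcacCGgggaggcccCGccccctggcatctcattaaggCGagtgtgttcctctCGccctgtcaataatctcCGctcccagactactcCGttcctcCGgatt
Nkd1, chr8:88527383-88527682, plus strand: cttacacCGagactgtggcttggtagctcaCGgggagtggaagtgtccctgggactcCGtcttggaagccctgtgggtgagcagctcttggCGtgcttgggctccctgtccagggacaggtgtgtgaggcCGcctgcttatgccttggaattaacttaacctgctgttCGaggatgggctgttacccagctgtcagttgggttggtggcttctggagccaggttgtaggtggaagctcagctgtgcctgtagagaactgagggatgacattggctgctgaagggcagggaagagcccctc
The Axin2 window held 31 CG dinucleotides and the Tcf7l2 window 34, against a median of 7 over all 32851 windows of the table, while the Nkd1 window held 6. The Nkd1 window is at a start inside the annotated span of the gene, not at its first base. The second Tcf7l2 window, at a start further into the gene, held 7. Both strands of the 9 windows were searched for CTTTGAT and CTTTGAA as forms of the TCF core, and other forms were not searched. None of the 9 held either, and 8.65% of all windows did.

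Of the members, 7 were well counted and 3 were sparse. Scaled to the length of the gene, since nuclear RNA holds introns, mean CPM over the 6 samples was highest for Rnf43 with 7.58 CPM per kb of gene, followed by Tcf7l2 with 3.82, Lgr4 with 3.21, Axin2 with 2.77, Znrf3 with 2.07, Lrp6 with 1.49 and Lrp5 with 0.828. Tcf7 had 0.128, Notum 0.0203 and Nkd1 0.0144 CPM per kb of gene. Per kb of exon Axin2 and Znrf3 changed order, with 15.3 and 44.2, as did Notum and Nkd1, with 0.0624 and 0.232. Not scaled by length, mean CPM was highest for Tcf7l2 with 733, against 552 for Rnf43. Whether counts of 3′ ends scale with length was not tested, so the order per kb is not an order of abundance. Tcf7l2 gave 93235 UMIs in all samples together, Rnf43 68011, Axin2 11080, Tcf7 488, Nkd1 121 and Notum 25.

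Over all nuclei, SCM did not move any member past the test. UMIs were summed per sample and compared with the edgeR quasi-likelihood test, adjusted over 19046 genes, of which 0% were called. Of the 9 members that passed the filter on low counts, 0 were called and 0 had an unadjusted p under 0.05 (4.55% of all genes). DESeq2 called 0 of the 9, with 1 at an unadjusted p under 0.05, against 0.11% of all genes called and 6.43% at an unadjusted p under 0.05. Voom with limma gave 0 and 1 of the 9, against 0% and 3.44% of all genes. All 9 estimates were higher in SCM, as were 48.6% of all genes tested. Of the 4593 genes with a mean of at least 50 CPM, a level that 7 of the 9 members reached, 58.6% were above 0 with a median log2 ratio of 0.061. The median log2 ratio of SCM over QCM was 0.21 for the members and -0.012 for all genes; the members' median was 0.23 without SCM replicate 1, 0.21 without the shared barcodes, 0.13 without SCM replicate 2 and 0.048 without QCM replicate 1. With the ribosomal protein share of each sample in the model, 4 of the 9 estimates were above 0 and the median of the 9 was -0.016. That share ran lower in SCM, with overlap, so in 6 samples its part and that of the medium cannot be fully told apart. This holds for all fits with that share below. In these sums, fewer cells of a type and less RNA per cell cannot be told apart.

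Rnf43, the ligase that removes Frizzled from the membrane, had the largest estimate of the 9. Its level was 337, 554 and 406 CPM in QCM replicates 1, 2 and 3 and 737, 763 and 514 CPM in SCM replicates 1, 2 and 3. The media overlapped only in that QCM replicate 2 was above SCM replicate 3, and SCM was higher in 8 of the 9 pairs of samples. The share of all genes with SCM higher in as many pairs was not counted. CPM are scaled by library size alone. A fit on that scale gave a log2 ratio of 0.63 for Rnf43 and a median of 0.14 over all genes. With TMM normalization the log2 ratio of Rnf43 was 0.49 ± 0.23 (SE, n = 3 per medium; edgeR adjusted p = 0.927). The estimate was above 0 in all 19 alternative fits, from 0.21 to 0.86, and lowest with the ribosomal protein share in the model. It was 0.43 without SCM replicate 1 and 0.48 without the shared barcodes. The fetal markers and, with overlap, the ribosomal protein share also differed between the media, as given above, and their part in this difference was not tested.

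The homolog Znrf3 had a smaller estimate, and SCM was again higher in 8 of the 9 pairs of samples. The estimates of both ligases were not compared by a test. Znrf3 had 210, 391 and 284 CPM in the QCM replicates and 491, 398 and 318 CPM in the SCM replicates, a log2 ratio of 0.31 ± 0.23 (SE, n = 3 per medium; edgeR adjusted p = 0.929). QCM replicate 2 lay above SCM replicate 3 here too. The Znrf3 estimate dropped to 0.0069 once the ribosomal protein share was in the model. It was 0.047 from replicates 2 and 3 only and 0.16 without SCM replicate 1.

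Among the receptors, the R-spondin receptor Lgr4 had 165, 343 and 313 CPM in QCM and 286, 390 and 362 CPM in SCM (log2 ratio 0.22 ± 0.25, SE, n = 3 per medium; edgeR adjusted p = 0.930). QCM replicate 1 was the lowest of the 6 samples, and the other values overlapped. Lrp5 had 49.2, 96.5 and 68.1 CPM in QCM and 99.0, 111 and 81.3 CPM in SCM, with a log2 ratio of 0.31 ± 0.21 (SE, n = 3 per medium; edgeR adjusted p = 0.929). Lrp6, the other Wnt co-receptor, had 99.4, 221 and 159 CPM in QCM and 179, 227 and 189 CPM in SCM, with a log2 ratio of 0.19 ± 0.24 (SE, n = 3 per medium; edgeR adjusted p = 0.930). QCM replicate 1, which had the highest share of ribosomal protein UMIs, was the lowest sample for both co-receptors. Without it the log2 ratio was 0.042 for Lgr4, 0.20 for Lrp5 and 0.030 for Lrp6. With the ribosomal protein share in the model all 3 were below 0, at -0.016, -0.025 and -0.14.

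The 2 nuclear factors differed in level but neither separated the media. Tcf7l2, the main TCF factor of the intestinal epithelium, had 495, 844 and 675 CPM in QCM and 851, 919 and 613 CPM in SCM (log2 ratio 0.10 ± 0.24, SE, n = 3 per medium; edgeR adjusted p = 0.968). Tcf7, a factor better known from T cells, stayed between 2.34 and 4.91 CPM in the 6 samples (log2 ratio 0.18 ± 0.33, SE, n = 3 per medium; edgeR adjusted p = 0.948). The Tcf7 estimate turned below 0 in 4 of the 19 alternatives and that of Tcf7l2 in 3.

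The feedback gene Axin2, a scaffold of the destruction complex and a widely used readout of the pathway, had 66.7, 85.8 and 70.4 CPM in QCM and 89.4, 112 and 80.9 CPM in SCM. QCM replicate 2 lay above SCM replicate 3, and the other pairs were higher in SCM. The log2 ratio was 0.18 ± 0.17 (SE, n = 3 per medium; edgeR adjusted p = 0.929). Nkd1, which binds Dishevelled, gave 18, 16 and 33 UMIs in the QCM samples and 6, 30 and 18 in the SCM samples, or 0.439 to 1.66 and 0.672 to 1.47 CPM (log2 ratio 0.21 ± 0.60, SE, n = 3 per medium; edgeR adjusted p = 0.971). The Nkd1 estimate was above 0 in 12 of the 19 alternatives and ran from -0.20 to 0.88. Notum, a secreted enzyme that inactivates Wnt proteins, gave 9, 3 and 4 UMIs in QCM and 0, 2 and 7 in SCM, and did not pass the filter. Its level over all nuclei was 0.183 CPM, with an exact 95% Poisson interval of 0.118 to 0.270 that covers counting error only. A difference in Notum between the media was therefore not tested.

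**Figure D1:**
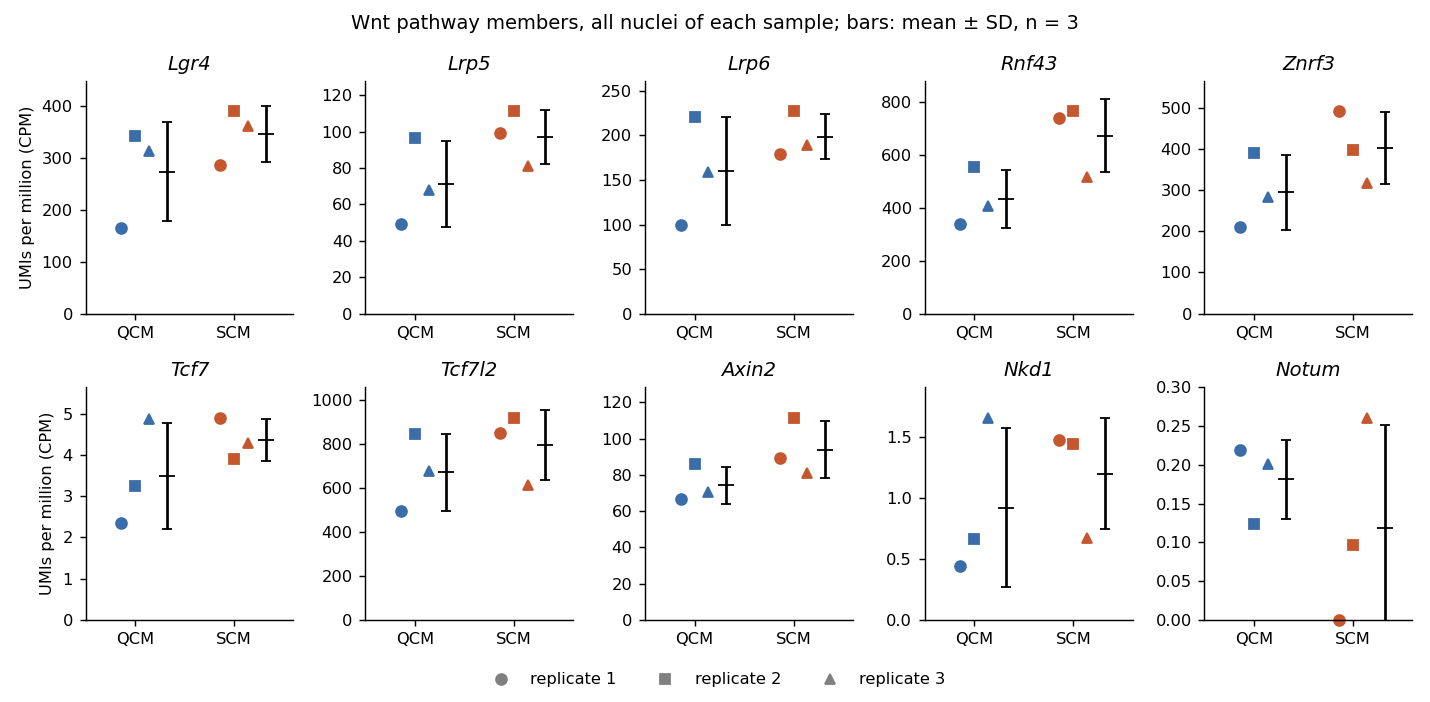
CPM of the 10 members over all nuclei, by medium, each panel with its own linear axis from 0. Points are samples, with a symbol for each replicate number, and bars give the mean ± SD (n = 3). The media overlap in all 10 panels, and for Rnf43 the SCM mean is 671 against 432 CPM in QCM.

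No member separated the media completely, while 4.99% of the genes tested had all SCM samples above all QCM samples and 2.09% had all below.

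The clusters were then used to see where the members were expressed. Clusters were deposited as numbers, and 6 of them could be described by markers at least 2-fold above the other nuclei: cluster 6 was goblet-like (Muc2, Fcgbp, Clca1, Spink4, Agr2 and Zg16, with 3 Paneth markers), cluster 7 fetal-like (Clu, Anxa1, Ly6a and Anxa3), cluster 8 enterocyte-like (Alpi, Apoa1, Apoa4 and Sis), clusters 9 and 10 enteroendocrine-like (Chga, Chgb, Neurod1, Rfx6 and Tph1 in both) and cluster 11 tuft-like (Dclk1, Trpm5, Avil, Sh2d6 and Pou2f3). Cluster 1 held markers of several types, with 15.3% of its UMIs in ribosomal protein genes, the highest share of the 15, and it was not named. The other clusters had no list with 3 markers past this limit. The clusters were made from highly variable genes of the same nuclei, and the sources used here do not say which members were among them. Levels by cluster are therefore described and not tested. They are means over the samples with at least 10 nuclei in the cluster, for the 13 clusters with at least 2 such samples per medium.

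Tcf7l2 and Axin2 had the most uneven levels of the well-counted members, and enterocyte-like cluster 8 was at opposite ends for the pair. Tcf7l2 in cluster 8 had 818, 1180 and 1114 CPM in QCM replicates 1, 2 and 3 and 1433, 1260 and 907 CPM in the SCM replicates. Its mean of 1119 ± 227 CPM (SD, n = 6) was the highest of the 13 clusters, and cluster 8 was first in 5 of the 6 samples. Cluster 5, an unnamed one, came next with 942 ± 248 (SD, n = 6), then goblet-like cluster 6 with 868 ± 161 (SD, n = 6). Cluster 1 was lowest with 535 ± 183 CPM (SD, n = 6), so the means spanned 2.09-fold. Cluster 14, with 92 nuclei and outside the 13, had 1139 ± 167 CPM of Tcf7l2 (SD, n = 3).

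Axin2 in cluster 8 had 50.6, 42.3 and 50.9 CPM in QCM and 41.4, 40.6 and 44.0 CPM in SCM. This was the narrowest spread and the lowest level of the 13 clusters, 45.0 ± 4.63 CPM (SD, n = 6), and cluster 8 was last in 4 of the 6 samples. SCM replicate 1 gave only 5 Axin2 UMIs there, from 11 nuclei. Without that sample the cluster 8 mean was 45.7 CPM for Axin2 and 1056 CPM for Tcf7l2. Axin2 was next lowest in cluster 5, with 67.3 ± 19.2 CPM (SD, n = 6), the cluster that was second for Tcf7l2. The highest Axin2 mean, 110 ± 72.3 CPM (SD, n = 5), was in tuft-like cluster 11 and rested on SCM replicate 2 with 237 CPM, since the other samples there had 58.9 to 97.5 CPM.

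In cluster 0, the largest with 11711 nuclei, Axin2 had 95.3 ± 23.9 CPM (SD, n = 6) and Tcf7l2 737 ± 130 CPM (SD, n = 6). Within every one of the 6 samples cluster 8 was below cluster 0 for Axin2 and above it for Tcf7l2. It was also below cluster 0 in all 6 samples for Lgr4, Lrp5, Rnf43 and Znrf3. The stem cell receptor Lgr5, another target of the pathway, was also lowest in cluster 8, at 214 ± 68.9 CPM (SD, n = 6), against 611 ± 294 in cluster 0 and 649 ± 299 in cluster 2.

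**Figure D2:**
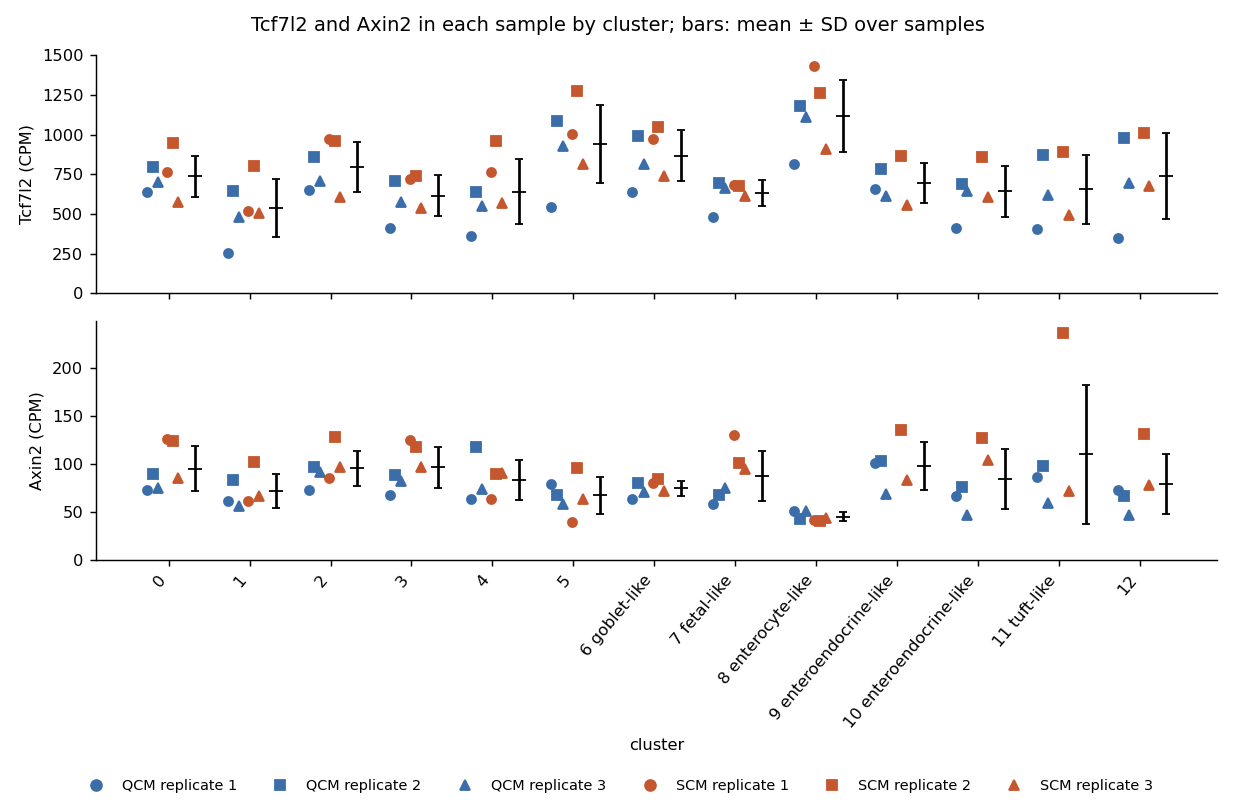
CPM of Tcf7l2 (top) and Axin2 (bottom) in each sample by cluster, for samples with at least 10 nuclei in the cluster. Colour gives the medium, symbols the replicate number, and bars the mean ± SD over samples. Of the 13 clusters, cluster 8 is highest for Tcf7l2, with a mean of 1119 CPM, and lowest for Axin2, with a mean of 45.0 CPM.

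Over the 13 clusters, Pearson's r between log2(CPM + 1) of Tcf7l2 and of Axin2 was -0.64. It was -0.72 with ribosomal protein genes left out of the totals, -0.83 without cluster 1 and -0.27 without cluster 8, so its size depended on single clusters. The points share the libraries they come from, and r across clusters is given as a description.

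Znrf3 shared the low level in cluster 8 with Axin2. It was lowest in cluster 8 with 214 ± 38.3 CPM (SD, n = 6) and highest in cluster 0 with 419 ± 118 CPM (SD, n = 6). Znrf3 was lower in cluster 8 than in cluster 0 in 6 of 6 samples, but so were Lgr4, Lrp5 and Rnf43. Lrp6 was higher in cluster 8 than in cluster 0 in 1 of 6 samples. Without SCM replicate 1, Znrf3 was highest in cluster 2, with 388 CPM against 377 in cluster 0. Its r over the 13 clusters was 0.75 with Axin2 and 0.50 with Rnf43. Without cluster 8 these were 0.46 and 0.67, so the order of the 2 rested on that cluster. Rnf43 was highest in clusters 0 and 2, with 664 ± 237 and 659 ± 189 CPM (SD, n = 6), and lowest in goblet-like cluster 6 with 423 ± 101 CPM (SD, n = 6). Without SCM replicate 1, Rnf43 was lowest in cluster 1, with 403 CPM against 417 in cluster 6. Cluster 8 was in the middle of its order with 507 ± 132 CPM (SD, n = 6).

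Among the receptors, Lgr4 ranged from 260 ± 80.4 CPM in cluster 1 to 366 ± 89.4 CPM in cluster 0 (SD, n = 6), a 1.41-fold span of the means, and Lrp6 from 143 ± 52.6 to 192 ± 44.3 CPM (SD, n = 6), a 1.34-fold span. Without SCM replicate 1, Lgr4 was highest in cluster 2, with 351 CPM against 346 in cluster 0. Lrp5 ran from 59.7 ± 20.5 CPM in cluster 12 to 97.8 ± 36.5 CPM in cluster 10 (SD, n = 5), a 1.64-fold span. Lgr4 and Lrp6 had an r of 0.71 with each other, and Lrp6 had an r of -0.86 with the ribosomal protein share of the clusters, against 0.06 for Axin2. That r was -0.70 for Tcf7l2, -0.59 for Lgr4, -0.52 for Rnf43, -0.50 for Lrp5 and -0.34 for Znrf3. Cluster 1, with the highest ribosomal protein share, was lowest for Lgr4, Lrp6 and Tcf7l2. For Lgr4 this was near a tie, with 259.7 CPM against 260.0 in cluster 9. With ribosomal protein genes left out of the totals, Lgr4 was lowest in cluster 9, with 277 CPM against 289 in cluster 1. Lrp6 and Tcf7l2 remained lowest in cluster 1, with 159 and 594 CPM. Whether that share played a part in these levels was not tested.

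For Lgr4, Lrp5, Lrp6, Rnf43, Znrf3, Tcf7 and Tcf7l2, all 12 steps between neighbouring clusters in the order of means were smaller than the larger SD of the pair. For Axin2, 11 of 12 were, the exception being the step down to cluster 8. These SDs include differences between samples that the clusters of a sample share. Within samples, cluster 0 was above cluster 1 in 6 of 6 for Lgr4, Lrp5, Lrp6, Rnf43, Znrf3, Tcf7l2 and Axin2. For Tcf7 it was above in 2 of 6.

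**Figure D3:**
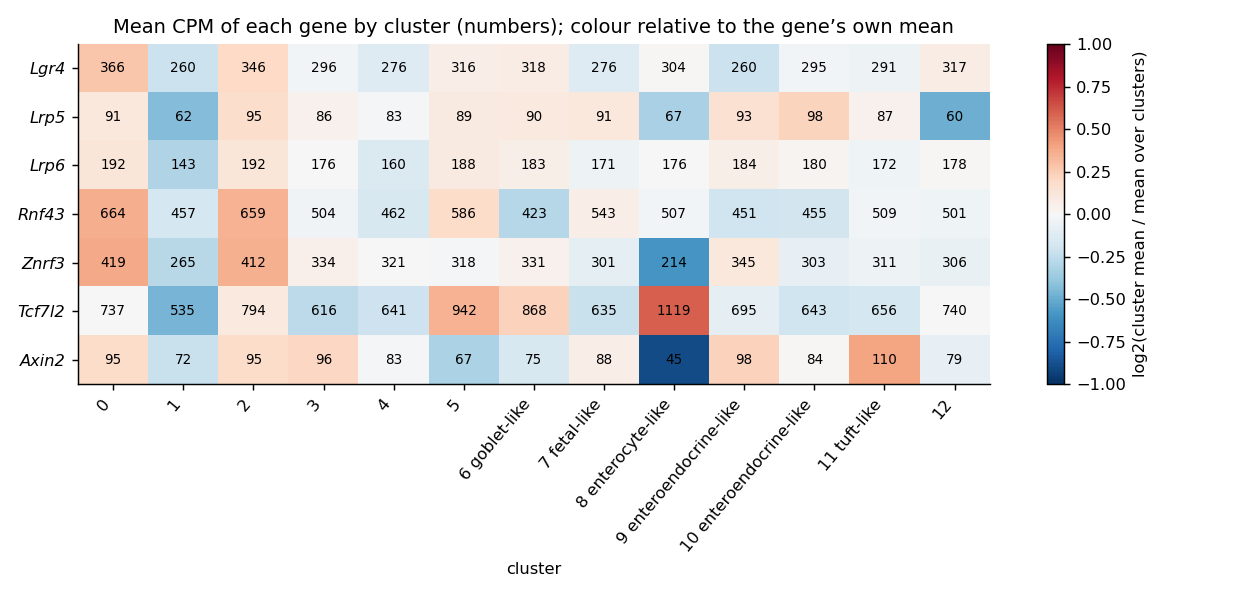
Mean CPM (numbers) of the 7 well-counted members in 13 clusters, coloured by the log2 ratio to the gene's mean over clusters. Cluster 8 stands out for Tcf7l2 (1119 CPM), Znrf3 (214 CPM) and Axin2 (45 CPM), and clusters 0 and 2 are highest for Rnf43.

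Nkd1 had its highest levels in 2 small clusters, while most of its UMIs lay elsewhere. Enteroendocrine-like cluster 9 and tuft-like cluster 11 held 3.76% of all UMIs but 28.9% of the Nkd1 UMIs, 35 of 121, and the other clusters held 71.1%. In cluster 11 there were 18 Nkd1 UMIs in 16 of 366 nuclei, or 12.3 CPM with an exact 95% Poisson interval of 7.30 to 19.5, and in cluster 9 there were 17 UMIs in 12 of 782 nuclei, or 4.61 CPM (2.69 to 7.39). The other 13 clusters together had 0.653 CPM (0.522 to 0.806), and enterocyte-like cluster 8 had 2 UMIs in 1416 nuclei. The share of nuclei with an Nkd1 UMI was 4.37% in cluster 11 and 1.53% in cluster 9, against 0.624% in cluster 7, 0.145% in cluster 0 and 0.141% in cluster 8. Cluster 14 had a higher share than cluster 9, 3.26% or 3 of 92 nuclei, at a median of 39432.5 UMIs per nucleus. Free RNA in the droplets can give such UMIs, and its level was not measured here. Without SCM replicate 2, which gave 8 of the 18 UMIs, cluster 11 had 8.20 CPM (3.93 to 15.1). These intervals cover counting error only.

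Both media contributed. In cluster 11 the QCM samples held 2, 1 and 5 Nkd1 UMIs and SCM replicates 2 and 3 held 8 and 2. In cluster 9 the QCM samples held 4, 5 and 2 UMIs and SCM replicates 2 and 3 held 3 each. In each of the 5 samples with at least 10 nuclei, Nkd1 was higher in clusters 9 and 11 than in cluster 0. SCM replicate 1 had 3 nuclei in cluster 9 and 4 in cluster 11, with no Nkd1 UMI. The second enteroendocrine-like cluster, 10, had 1 UMI, which left an upper limit of 3.79 CPM. Clusters 12 and 13 had none, with upper limits of 4.39 and 8.24 CPM. These 3 clusters were not tested against cluster 9. Median depth was 2156.5 UMIs per nucleus in cluster 9 and 2080.5 in cluster 11, against 2111 in cluster 0 and 2366.5 in cluster 8.

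**Figure D4:**
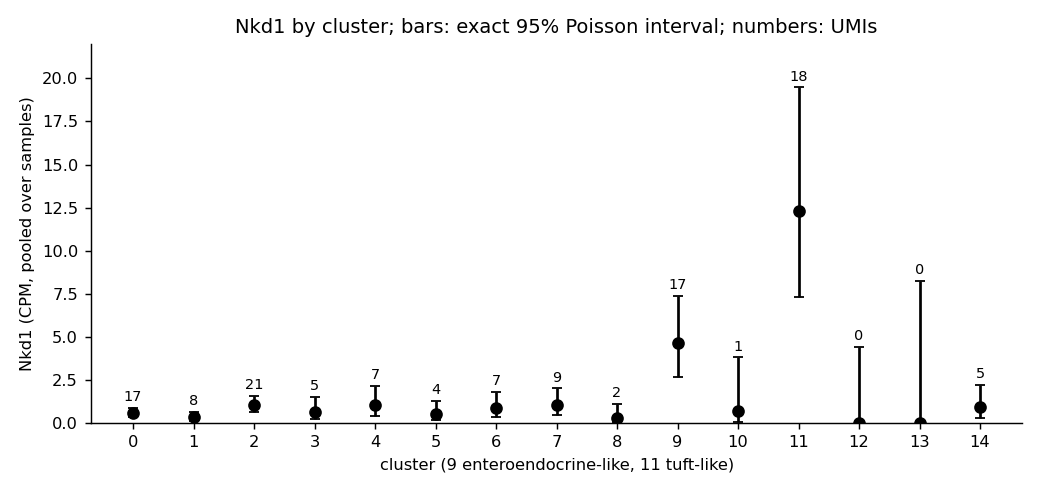
Nkd1 CPM pooled over samples in the 15 clusters, with exact 95% Poisson intervals and the number of UMIs above each. Clusters 11 (12.3 CPM) and 9 (4.61 CPM) have the highest values, and the intervals of clusters 10, 12 and 13 reach into that of cluster 9.

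Tcf7 means lay between 2.83 and 5.52 CPM in the 13 clusters, and the other 2 clusters had 1.27 and 3.03 CPM. Notum had at most 5 UMIs in any cluster, those 5 in cluster 8 (0.742 CPM, 0.241 to 1.73), and none in clusters 3, 4, 10, 11, 12 and 13. Its 25 UMIs are too few to compare clusters.

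The effect of the medium was next compared inside each cluster, to set it apart from a change in the mix of clusters. In 13 clusters, 93 pairs of a member and a cluster could be tested, and the edgeR test called 0 of them, as it called 0% of all 130109 gene and cluster pairs. Of the 93, 2 had an unadjusted p under 0.05, against 5.76% of all pairs. That number was 0 without SCM replicate 1, without SCM replicate 2, without QCM replicate 3 and with the ribosomal protein share in the model, and 1 to 7 in the other alternatives. In the 93, DESeq2 and voom with limma called 0. Of all pairs, DESeq2 called 39 (0.03%) and voom with limma 0. The estimate was above 0 in 83 of the 93 pairs (89.2%), against 49.3% of all pairs, with a median log2 ratio of 0.24 for the members and -0.0070 for all pairs. Of the 58321 pairs at a mean of at least 50 CPM, 56.1% were above 0, and of the 89 member pairs at that level 82 were. The count over the members was 70 of 92 without QCM replicate 1 and 51 of 66 without SCM replicate 2. With the ribosomal protein share of each sample's cluster in the model, an alternative chosen after seeing the data, it was 49 of 93 (52.7%, against 48.7% of all pairs) and the members' median was 0.0050.

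Rnf43 was above 0 in all 13 clusters, from 0.20 to 0.73, as were Lgr4 (0.05 to 0.49) and Lrp6 (0.15 to 0.45), and Lrp5 was above 0 in the 12 in which it was tested (0.12 to 0.75). Of the 3774 genes tested in all 13 clusters, 15.4% were above 0 in each of them. Clusters of 1 sample share its library, so these counts are not independent. Without QCM replicate 1, Lrp6 was above 0 in 8 of 13 clusters, Lgr4 in 10 of 13 and Lrp5 in 9 of 12. With the ribosomal protein share in the model, Rnf43 was above 0 in 13 of 13, Lgr4 in 9 of 13, Lrp6 in 6 of 13, Lrp5 in 5 of 12, Axin2 in 9 of 13, Znrf3 in 5 of 13 and Tcf7l2 in 1 of 13. Without QCM replicate 1, Tcf7l2 was above 0 in 6 of 13, against 10 of 13 with that sample, while Rnf43 remained above 0 in every cluster fitted whichever sample was left out.

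The pair with the smallest p was Rnf43 in fetal-like cluster 7, where 11.9% of all genes tested had an unadjusted p under 0.05. It had 377, 439 and 396 CPM in QCM and 696, 730 and 619 CPM in SCM, so the media did not overlap there, with 17 nuclei in SCM replicate 1. The log2 ratio was 0.64 ± 0.26 (SE, n = 3 per medium; edgeR adjusted p = 0.366). In the same cluster Axin2 did not overlap between the media either, with a log2 ratio of 0.52 ± 0.24 (SE, n = 3 per medium; edgeR adjusted p = 0.420). The share of all genes without overlap is not given for cluster 7 alone, so these 2 cannot be set against it. The other pair with an unadjusted p under 0.05 was Lrp5 in cluster 5, with 52.4, 82.2 and 59.3 CPM in QCM and 146, 114 and 81.9 CPM in SCM. There SCM replicate 3 was just below QCM replicate 2, and SCM replicate 1 rested on 15 UMIs from 20 nuclei (log2 ratio 0.61 ± 0.26, SE, n = 3 per medium; edgeR adjusted p = 0.989).

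In the 9 clusters with 6 samples, 6 of 66 member pairs had all SCM samples above all QCM samples, against 5.95% of all pairs, and 0 of 66 had them all below, against 4.09%. The 6 were Rnf43 and Axin2 in clusters 3 and 7 and Lgr4 in clusters 0 and 1. The shares of all pairs are over the 9 clusters together and can differ in a single cluster. Axin2 had the widest range of estimates over the clusters, though their SEs were unequal. It ran from -0.19 ± 0.27 in enterocyte-like cluster 8 (SE, n = 3 per medium) to 0.75 ± 0.48 in tuft-like cluster 11 (SE, n = 3 QCM and 2 SCM samples). The Axin2 estimate was below 0 in clusters 1, 4, 5 and 8. Znrf3 was below 0 in cluster 8 alone, with -0.20 ± 0.25 (SE, n = 3 per medium; edgeR adjusted p = 1.00).

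**Figure D5:**
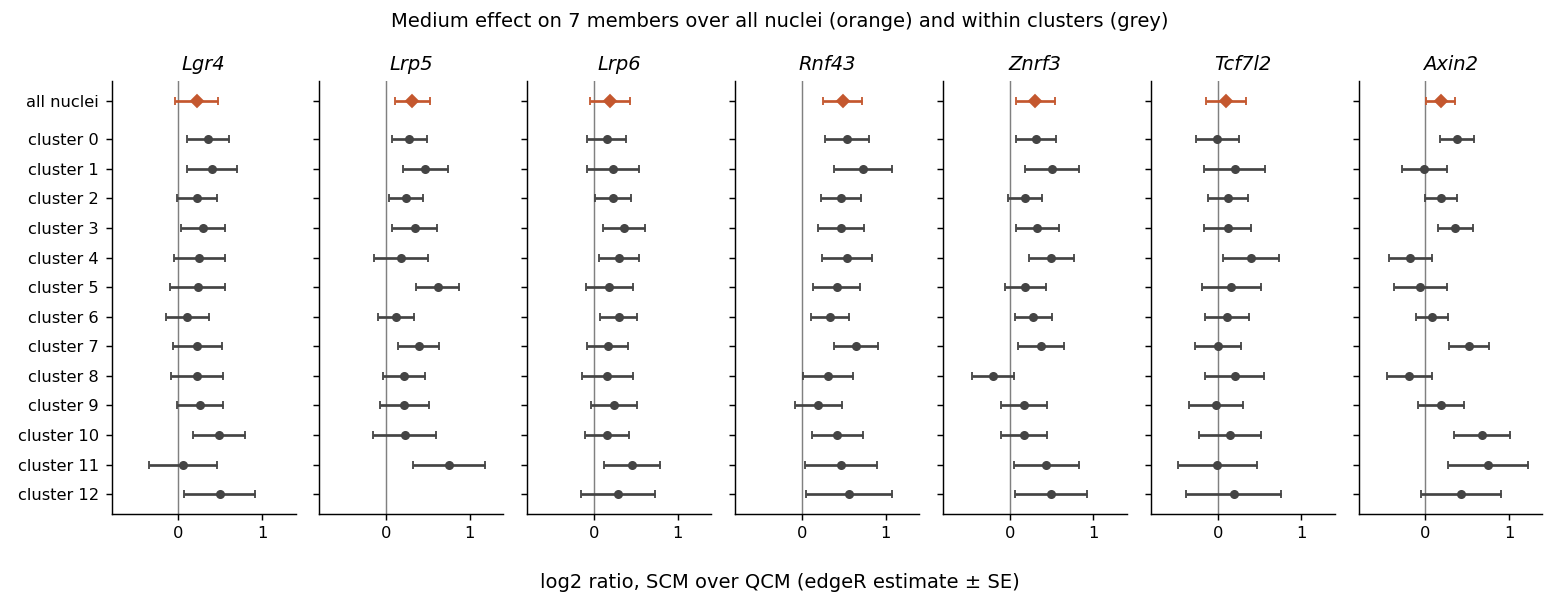
Log2 ratio of SCM over QCM with its SE (edgeR) for 7 members, over all nuclei (orange diamonds) and within 13 clusters (grey points; Lrp5 was tested in 12). Rnf43 points lie between 0.20 and 0.73, and Axin2 points lie on both sides of 0.

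Whether the medium acted differently in a cluster was tested on the difference between that cluster and the other nuclei of the same sample. The limma test called 0 of the 93 member pairs and 0.00307% of all pairs, 4 of 130109. Of the 93 member pairs, 3 had an unadjusted p under 0.05, which is near the share of 3.26% over all pairs. These were Znrf3 in cluster 8 with -0.50 ± 0.16 (SE, n = 3 per medium; limma adjusted p = 0.918), Axin2 in cluster 4 with -0.43 ± 0.19 (limma adjusted p = 0.884) and Tcf7l2 in cluster 4 with 0.29 ± 0.11 (limma adjusted p = 0.884). Znrf3 in cluster 8 had 175 to 256 CPM in QCM and 180 to 240 CPM in SCM, while in cluster 0 it had 283 to 414 CPM in QCM and 364 to 629 CPM in SCM. Cluster 0 is given as an example, since the test used all other nuclei. Clusters 8 and 0 were not tested against each other, and no response particular to cluster 8 was shown.

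The rest of the pathway was read from a list of 80 other genes, of which 78 were in the files and 52 passed the filter. The edgeR test called 0 of the 52. Estimates were above 0 for 34 (65.4%, against 48.6% of all genes) with a median log2 ratio of 0.09. The median was -0.0071 without QCM replicate 2 (27 of 56 above 0) and -0.013 without the low-count filter (39 of 78), and without the deepest nuclei 24 of 48 were above 0. Among the 9 crypt targets 8 were above 0 with a median of 0.28, among the 7 genes of the destruction complex 6 with a median of 0.12, and among the 8 Frizzled receptors 2 with a median of -0.22. Lgr5, the R-spondin receptor of the stem cells, had 185, 596 and 297 CPM in QCM and 534, 811 and 442 CPM in SCM, with a log2 ratio of 0.62 ± 0.38 (SE, n = 3 per medium; edgeR adjusted p = 0.929).

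The adhesion receptor Cd44, a crypt target, was the 1 gene of the 52 with an unadjusted p under 0.05, against 4.55% of all genes. It was chosen after its values were seen. It had 70.9, 74.6 and 74.7 CPM in QCM and 142, 217 and 118 CPM in SCM, without overlap (log2 ratio 0.94 ± 0.24, SE, n = 3 per medium; edgeR adjusted p = 0.927). Of the 52, Cd44, Ccnd1 and Csnk1a1 had all SCM samples above all QCM samples in CPM. These 3 genes of 52 are near the share of 4.99% over all genes tested. Csnk1a1 separated only narrowly, with 434.4 CPM in its lowest SCM sample against 433.7 in its highest QCM sample. With TMM normalization its log2 ratio was 0.02 ± 0.19 (SE, n = 3 per medium). Ccnd1 and Csnk1a1 were also named after their values were seen.

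In each role the gene with the highest level gave the following log2 ratios, none of which was called. Fzd5, a Frizzled receptor, had -0.39 ± 0.23 and Wls, which carries Wnt proteins to the surface, 0.35 ± 0.21. Csnk1a1, the kinase that primes β-catenin for destruction, had 0.02 ± 0.19, β-catenin itself (Ctnnb1) 0.09 ± 0.25 and the corepressor Tle4 0.07 ± 0.19. Ephb2, a guidance receptor of crypt cells, had 0.28 ± 0.22, the inhibitor co-receptor Kremen1 0.25 ± 0.18, Dvl1, a Dishevelled, -0.11 ± 0.23, and the ligand Wnt2b 0.19 ± 0.22. Of the R-spondins, Rspo4 was highest with 49 UMIs in all and had -0.22 ± 0.73. All errors in these sentences are SEs with n = 3 per medium from the edgeR fit over all nuclei. Of the 19 Wnt ligands 6 passed the filter, and none exceeded the mean of 12.8 CPM of Wnt2b.

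Genes whose means followed a member most closely over the 13 clusters were sought among 12127 genes with a mean of at least 5 CPM. For Axin2 they included Zfp808, Msi1, Cenpl and Sorcs2 with Pearson's r of 0.95 to 0.91, and for Tcf7l2 they were Fchsd2, AU040320 and Peli1 with 0.96 to 0.95. Nkd1 was followed by Slco3a1, Lrmp and Rgs13 with 0.94 to 0.93, of which Lrmp and Rgs13 were among the 10 leading genes of tuft-like cluster 11. Nkd1 was itself highest in cluster 11, from 18 UMIs, so genes with its pattern were bound to be high there. These names were not kept with Spearman's rho. For Rnf43 the closest genes were Pdcd2l, B430010I23Rik and 5730507A11Rik, and for Znrf3 Etv6, Stag1 and Ncoa5. For Lgr4 they were Gtf2f2, Nom1 and Asxl2, for Lrp5 Atpaf1, Gm37422 and Mccc1, and for Lrp6 Rptor, Fbxl17 and Ttc14. The genes of these members all had r of at least 0.887. For the sparse Tcf7 they were Tspan17, Galnt18 and Mcts2 with 0.79 to 0.76, and those of Notum are not given because of its low counts. With Spearman's rho in place of r, 4 of the 32 closest genes were still among the closest, so the names depend on the measure. All points share the 6 libraries.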

How the data were processed

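Nuclei were captured in droplets and the 3′ ends of their RNA were sequenced. Per the submitters' processing notes, Cell Ranger 2.1.1 was used, and per the study's methods reads were aligned to mm10. The authors left out nuclei with outlying mitochondrial share, reads or features and clustered the rest. The deposited matrices hold raw UMI counts per gene and nucleus, and the deposited annotation gives cluster numbers and a mitochondrial fraction. The deposited log values were not used. Of 31319 Ensembl identifiers, 31244 were matched to symbols (GENCODE M21). No doublet caller was run here; the deepest 6% of nuclei were left out as an alternative.

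Counts of all 38154 nuclei were added up for each sample, and for each cluster of a sample (at least 10 nuclei, at least 2 samples per medium), in Python 3.11.15. Media were compared in R 4.3.3 with edgeR 4.0.16 (quasi-likelihood test, TMM, filterByExpr with a minimum count of 10) and Benjamini-Hochberg adjustment over all genes, threshold 0.05. Differences between a cluster and the other nuclei used limma 3.58.1 (prior count 2). DESeq2 1.42.0, voom and other alternatives are in the closing section. CPM are per 1000000 UMIs of a sample or cluster, without TMM scaling. The tests were tried on simulated data with known changes, and the edgeR test over all nuclei missed most of the smaller ones. P-values measure the spread between these samples, since nothing in the labels ties them to separate animals.

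Members and lists were chosen with earlier results of these data known. The genes named beside the members were to be those of the pathway list called over all genes (none was), the most abundant gene of each role, Lgr5, the 3 genes (5 for Axin2) closest to each member over the clusters, and markers that name a cluster. Cd44, Ccnd1 and Csnk1a1 are also named for values seen first. A marker counted when at least 2-fold above the other nuclei at 5 CPM or more, and 3 were needed. Of the 32 closest genes, those of Notum and 1 other are not reported here. Protein sequences were not used here.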

Additional observations from a re-analysis of the deposited data

How the results depend on the processing

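No member was called in any alternative, over all nuclei, within clusters or in the test between a cluster and the other nuclei, and the same held for the pathway list over all nuclei. Over all genes, DESeq2 called 21 genes against 0. Within clusters, DESeq2 called 39 gene and cluster pairs, library size alone 5, the fit without QCM replicate 2 32 and the fit without a low-count filter 3135, against 0. The median log2 ratio of the members was 0.21, and -0.016 with each sample's ribosomal protein share in the model. With that term, which partly follows the medium, Lgr4 (-0.016), Lrp5 (-0.025), Lrp6 (-0.14), Tcf7l2 (-0.20) and Nkd1 (-0.11) also turned. With replicates 2 and 3 alone, Tcf7 (-0.033), Tcf7l2 (-0.033) and Nkd1 (-0.20) turned. Tcf7 turned with nuclei weighted equally (-0.018) and, in alternatives chosen after seeing the data, without the shared barcodes of replicate 1 (-0.041) and without the deepest nuclei (-0.15). Nkd1 turned without cluster 14 (-0.0092) and without the shared barcodes (-0.068). Leaving out 1 sample gave medians of 0.048 (without QCM replicate 1) to 0.34, with Nkd1 from -0.056 to 0.88, Tcf7 from 0.048 to 0.45 and Tcf7l2 from -0.017 (without SCM replicate 2) to 0.22. The lowest and highest values were 0.042 and 0.35 for Lgr4, 0.20 and 0.51 for Lrp5 and 0.030 and 0.41 for Lrp6, each lowest without QCM replicate 1, 0.045 (without SCM replicate 2) and 0.24 for Axin2, 0.16 (without SCM replicate 1) and 0.47 for Znrf3, and 0.39 and 0.62 for Rnf43. The cause was not tested. Axin2, Rnf43 and Znrf3 were above 0 in all 19 alternatives, but Znrf3 was at 0.0069 with the ribosomal protein share in the model and 0.047 with replicates 2 and 3 alone. Of the genes that followed a member over the clusters, 4 of 32 remained with Spearman's rho.

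Samples with the same replicate number were not paired in the main fit, since the labels do not tie them together. The correlations of their deviations were 0.36, 0.46 and -0.09, against -0.46 to 0.16 for samples with different numbers. Replicates 1 and 2 thus lay above all unmatched pairs and replicate 3 did not, so whether the numbers pair the samples is not settled. With the replicate number as a block, 0 members were called over all nuclei and 0 within clusters, and the median log2 ratio of the members was 0.23. The fit within clusters then called 248 of all gene and cluster pairs against 0.

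SCM replicate 1 had 430 nuclei. A count of 0 called does not show that levels were equal. The SEs of the members' log2 ratios were 0.17 to 0.60 with 3 samples per medium, and Notum, Nkd1 and Tcf7 are limited by their counts.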
